A study of Mus musculus with 12 samples.

Results

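The immediate early transcription factors described here are 10 genes of the 20775 listed in each deposited table: Egr1, Egr2, Egr3, Fos, Fosb, Jun, Junb, Jund, Ier2 and Atf3. They were chosen by name with the knockout and control values of the same samples already known, so those values select the genes and are given as a description. Calls of these genes come from the fit over all genes and are counted only beside the share of all genes called, not as a test of the genes. RNA was sequenced from 12 mouse samples of the C57BL/6 background, 3 in each of 4 groups. At E10.5 (embryonic day) whole hearts were taken from Tnnt-Cre+;Med30 f/f embryos (cKO), in which the troponin T promoter drives Cre in cardiomyocytes, and from Cre-negative Med30 f/f littermates (Ctrl), which the labels call wild type. In adults, cardiomyocytes were isolated by collagenase perfusion 4 weeks after tamoxifen from αMHC-MerCreMer;Med30 f/f mice (icKO), in which the α-myosin heavy chain promoter drives a tamoxifen-inducible Cre, with Med30 f/f mice that lack Cre as Ctrl. Tamoxifen was given to both adult groups at 8 weeks of age, and the labels give the adults as 3 months old. All groups thus carry the floxed Med30 allele, a line in which exon 1 of Med30, a subunit of the Mediator complex, lies between loxP sites. No control carries Cre, so an effect of Cre cannot be told apart from the loss of Med30, and whether a sample is 1 animal or a pool is not stated in the labels. P values measure the spread between these samples.

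Immediate early genes are transcribed within minutes of a stimulus without new protein synthesis, and their products switch on later genes. Kinases of growth factor and stress signalling act on factors already bound to their promoters, chiefly SRF with its ternary complex partners and CREB or ATF proteins. Egr proteins are zinc finger factors, Fos and Jun proteins pair through leucine zippers to form AP-1, Ier2 is a small nuclear protein, and Atf3 is a stress-induced leucine zipper factor that can pair with Jun proteins. In heart muscle they are known for their response to stretch, adrenergic drive and ischaemia, and dissection of a tissue or its digestion with enzymes is also known to induce them. The E10.5 hearts were removed and frozen whole, whereas the adult cells went through perfusion and digestion first, and the part of handling in the levels below was not tested.

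Promoter stretches are shown for 5 of the genes, since some of the short elements that such stimuli act on lie close to the start of transcription. The RefSeq promoter table (GRCm38.p6) held windows for 7 of the 10 genes and none for Egr1, Egr3 and Ier2. Each line gives the 120 bases that end just before the start, 5′ to 3′ on the strand of the gene, with the motif found in capitals.
Fos: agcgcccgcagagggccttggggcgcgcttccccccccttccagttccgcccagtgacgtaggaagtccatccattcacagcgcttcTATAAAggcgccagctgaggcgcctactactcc
Jun: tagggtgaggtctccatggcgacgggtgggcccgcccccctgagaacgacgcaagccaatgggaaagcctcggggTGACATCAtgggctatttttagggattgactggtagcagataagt
Junb: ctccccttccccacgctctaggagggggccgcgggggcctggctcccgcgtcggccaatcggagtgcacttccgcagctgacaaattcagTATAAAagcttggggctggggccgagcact
Fosb: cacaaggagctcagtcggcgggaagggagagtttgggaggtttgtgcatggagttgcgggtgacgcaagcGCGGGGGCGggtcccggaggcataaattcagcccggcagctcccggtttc
Egr2: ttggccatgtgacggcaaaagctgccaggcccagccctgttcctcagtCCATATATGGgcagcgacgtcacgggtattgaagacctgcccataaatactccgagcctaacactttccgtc

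The stretches are chr12:85473770-85473889 (plus strand) for Fos, chr4:95052223-95052342 (minus) for Jun, chr8:84978719-84978838 (minus) for Junb, chr7:19310046-19310165 (minus) for Fosb and chr10:67537749-67537868 (plus) for Egr2. For Junb the annotated GENCODE start was used, which lies 30 bases after the RefSeq one, and for Egr2 the third of 5 RefSeq starts is shown. Both strands of the full windows, from 250 bases before to 50 bases after the start, were searched for 6 elements. The TATA element TATAAA was found in Fos, 33 to 28 bases before the start, and in Junb, 30 to 25 bases before it, and in 13.6% of 32851 windows of all genes. Jun held the CRE-like TGACNTCA 45 to 38 bases before its start, as TGACATCA, which 8.83% of all windows hold. The CArG box, the element that SRF binds, was found in the windows of 4 of the 5 Egr2 starts and in 1.63% of all windows. Fosb held the Egr element GCGNGGGCG, present in 5.55% of all windows. The full CRE TGACGTCA, itself a form of TGACNTCA, is in 1.79% and the AP-1 element TGANTCA in 7.81% of all windows, and neither was found in the windows of these 7 genes. Jund and Atf3 held none of the 6 elements, and their RefSeq starts lie 1210 and 34706 bases from the GENCODE gene start. A match or its absence describes these letters only, and elements further than 250 bases before the start were not searched for.

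In the GENCODE M21 annotation of GRCm38 all 10 are protein-coding genes. Egr1 lies at chr18:34859823-34864984, Egr2 at chr10:67535475-67542188, Egr3 at chr14:70077203-70082614 and Atf3 at chr1:191170296-191218039. Fos lies at chr12:85473890-85477273, Fosb at chr7:19302696-19310051 and Jun at chr4:95049034-95052222. Junb (chr8:84974484-84978718), Jund (chr8:70698949-70700616) and Ier2 (chr8:84661331-84662852) share chromosome 8. Jun, Junb, Jund and Ier2 have 1 exon, and the other 6 have more. Jun and Jund overlap antisense genes, Junb overlaps Prdx2 and Atf3 overlaps a small annotated gene, and since the strand setting of the counting is not stated, reads of such partners may be included in their values.

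Values are RPKM (reads per kilobase of gene, relative to library size) as the authors deposited them, 1 table per stage. From the spacing of low values the libraries came to 13.7 to 20 M reads at E10.5 and 12 to 17.5 M reads in adults. Med30 itself was at 10.6, 13.3 and 11.3 RPKM in the E10.5 Ctrl and 1.38, 2.02 and 1.0 in the cKO samples, and at 7.66, 7.45 and 7.66 in the adult Ctrl and 3.81, 3.16 and 1.82 in the icKO samples. Fold changes are log2 differences, knockout minus Ctrl, of RPKM + 0.1, with the standard error (SE) of limma. Calls needed an adjusted p (Benjamini-Hochberg over all genes tested) under 0.05 and a log2 fold change beyond 1, and only genes whose RPKM averaged above 1 in the 6 samples of a stage were tested. Over all genes tested the median log2 fold change came to −0.13 at E10.5 and 0.57 in adults. Median-ratio scaling, which brings the typical gene of each library to the same level, moved these medians to −0.01 and 0.02. The 20 most abundant genes took 24.2% to 24.8% of the summed RPKM in adult Ctrl and 10.7% to 12.2% in icKO samples.

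**Figure D1:**
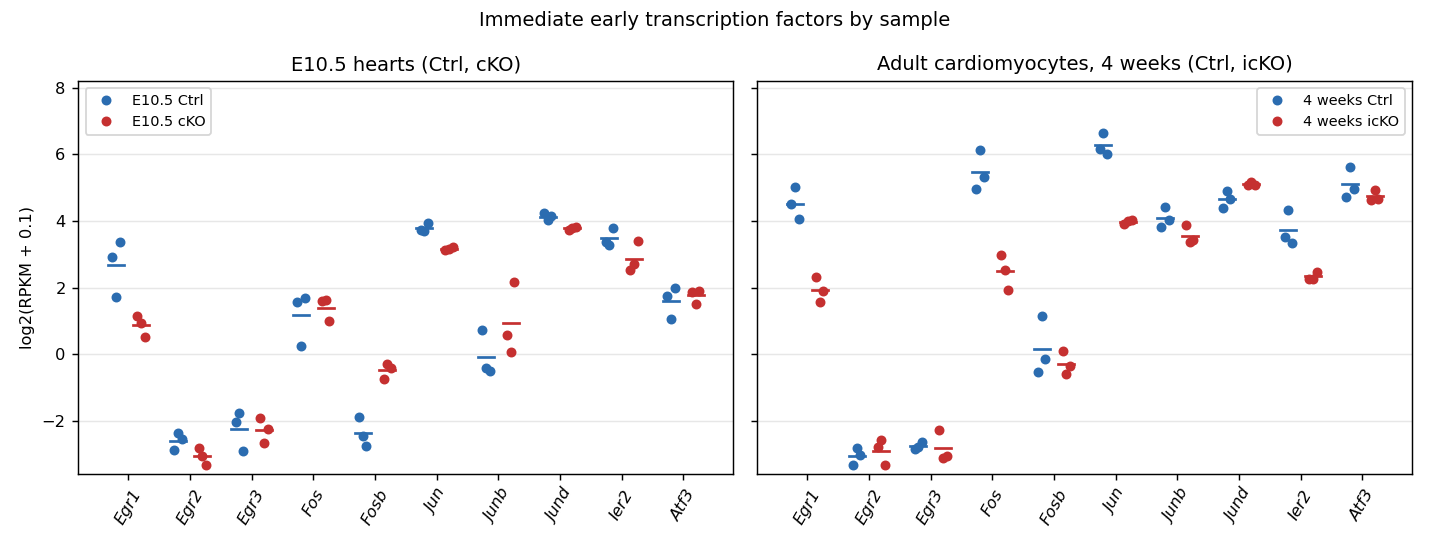
Each point is the log2(RPKM + 0.1) of 1 gene in 1 sample, at E10.5 on the left and in adult cardiomyocytes on the right, with Ctrl in blue, knockout in red and bars at the mean of 3 samples. Egr1, Fos, Jun and Ier2 of the adult icKO samples all sit below all Ctrl samples, Jund sits above them, and Egr2 and Egr3 lie near the lower edge in every group.

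In adult cardiomyocytes Egr1, Fos and Jun were 5.03 to 8.15 times lower in icKO than in Ctrl samples, by the means,, Ier2 was lower as well, Junb and Atf3 overlapped between the groups, and Jund was higher. Egr1, the zinc finger factor that many growth and stress signals induce, was at 22.5, 32.2 and 16.5 RPKM in Ctrl and 4.88, 2.89 and 3.60 RPKM in icKO samples. Every icKO sample lay below every Ctrl sample, and the icKO mean was 16.0% of the Ctrl mean. The log2 fold change of Egr1 was −2.60 (SE 0.250, n = 3 per group). Egr2, best known from hindbrain and Schwann cells, was listed at 0, 0.0440 and 0.0230 RPKM in Ctrl and 0.0450, 0.0690 and 0 in icKO samples. Egr3 was at 0.0400, 0.0450 and 0.0620 RPKM in Ctrl and 0.109, 0.0160 and 0.0220 in icKO samples. The RPKM of 3 reads is 0.0577 to 0.0844 for Egr2 and 0.0434 to 0.0635 for Egr3, so both stood at or near that floor, which covers counting error only, and no fold is given.

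Fos, the founding partner of Jun in AP-1, was at 30.9, 70.4 and 39.6 RPKM in adult Ctrl and 7.84, 5.74 and 3.71 RPKM in icKO samples. The groups did not overlap, and the highest Ctrl sample was replicate 2. The icKO mean of Fos was 12.3% of the Ctrl mean, a log2 fold change of −2.98 (SE 0.324). Fosb, its paralog, was much lower, at 0.599, 2.13 and 0.809 RPKM in Ctrl and 0.968, 0.568 and 0.683 RPKM in icKO samples. The groups of Fosb overlapped, and its mean of 0.959 RPKM kept it out of the fit.

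Jun, the AP-1 subunit with the strongest own activity among the Jun proteins, was at 71.4, 100.4 and 65.0 RPKM in adult Ctrl and 14.8, 15.9 and 16.4 RPKM in icKO samples. The icKO samples lay close together and far below the Ctrl samples, at 19.9% of the Ctrl mean, with a log2 fold change of −2.30 (SE 0.149). Junb, which can oppose Jun at some promoters, was at 14.0, 21.2 and 16.1 RPKM in Ctrl and 14.7, 10.2 and 10.8 RPKM in icKO samples. Its groups overlapped through icKO replicate 1 and Ctrl replicate 1, and the log2 fold change was −0.52 (SE 0.178). Jund, the most constantly expressed Jun gene in many tissues, was at 20.9, 30.0 and 25.1 RPKM in Ctrl and 33.7, 36.2 and 34.1 RPKM in icKO samples. Here every icKO sample lay above every Ctrl sample, with a log2 fold change of 0.47 (SE 0.125), but with median-ratio scaling the value of Jund was −0.09, so its direction depends on the scaling.

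Ier2 was at 11.5, 20.1 and 9.998 RPKM in adult Ctrl and 4.69, 4.74 and 5.47 RPKM in icKO samples. The groups of Ier2 did not overlap, and the icKO mean was 35.8% of the Ctrl mean, a log2 fold change of −1.40 (SE 0.229). Atf3 was at 26.4, 48.6 and 31.4 RPKM in Ctrl and 24.9, 30.3 and 25.5 RPKM in icKO samples. The Atf3 groups overlapped, and the log2 fold change was −0.35 (SE 0.199). Atf3 therefore kept 75.8% of its Ctrl mean while Fos, in the same libraries, kept 12.3%.

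Of the 10 genes 7 passed the filter in adults, and 4 of the 7 (Egr1, Fos, Jun and Ier2) were called lower and 0 higher, where 8.45% of the 9517 genes tested were called lower and 28.0% higher. The same 4 lay entirely below Ctrl and 1, Jund, entirely above, against 18.9% below and 62.0% above among all genes. An adjusted p under 0.05 with no limit on the fold was reached by 78.7% of all genes. With median-ratio scaling 5 were called lower, Junb (−1.07) being added, against 15.7% of all genes lower and 11.3% higher. These counts use the values that chose the genes, and nothing is read from them. The median log2 fold change of the 7 was −1.40, or −1.94 with median-ratio scaling. Ctrl replicate 2 was the highest Ctrl sample for all 7, whereas it was highest for 31.5% of all genes tested. Without Ctrl replicate 2 the log2 fold changes were −2.35 for Egr1, −2.64 for Fos, −2.11 for Jun and −1.10 for Ier2.

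**Figure D2:**
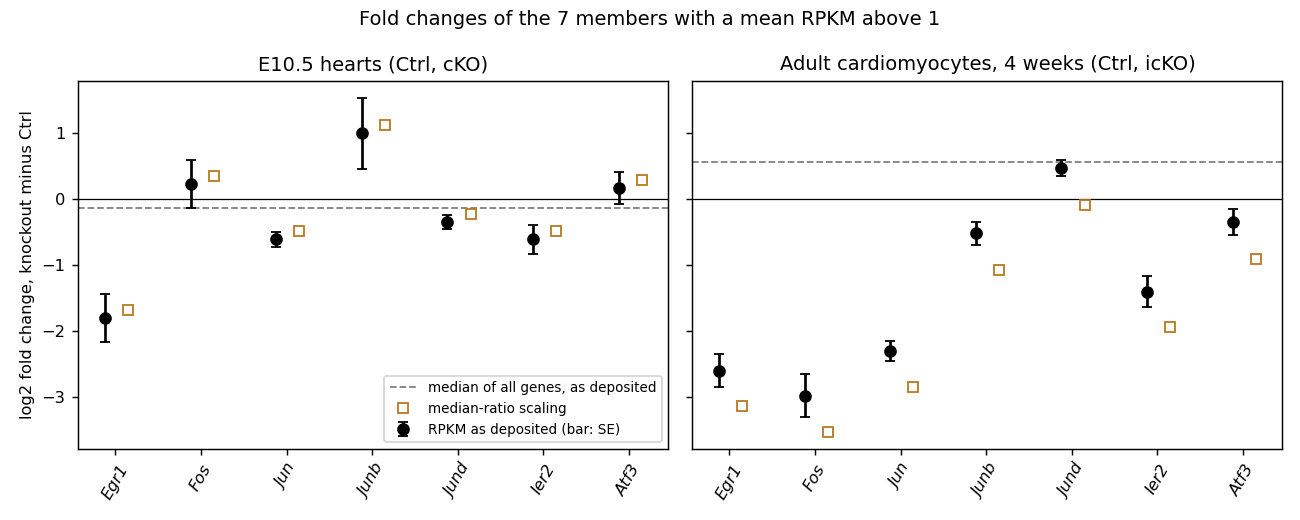
Filled points are log2 fold changes, knockout minus Ctrl, of the 7 genes with a mean RPKM above 1, from the deposited RPKM with SE bars (n = 3 per group), open squares are the values with median-ratio scaling, and the dashed line is the median of all genes tested. In adults the 4 called genes lie at −1.40 or lower while Jund lies at 0.47 as deposited and at −0.09 when scaled.

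In the E10.5 hearts differences went in both directions. Egr1, Jun and Jund were lower in all cKO samples, Fosb was higher, and Fos, Junb, Ier2 and Atf3 overlapped between the groups. Egr1 was at 7.49, 3.18 and 10.4 RPKM in Ctrl and 2.14, 1.80 and 1.35 RPKM in cKO samples. No cKO sample reached a Ctrl sample, and the cKO mean was at 25.2% of the Ctrl mean, with a log2 fold change of −1.80 (SE 0.368). The Ctrl samples of Egr1 themselves spanned from 3.18 to 10.4 RPKM. The call of Egr1 was lost when Ctrl replicate 1 (−1.68), Ctrl replicate 3 (−1.44), cKO replicate 1 or cKO replicate 2 was left out, and also with no filter on low values or no trend in the variance. Egr2 ranged from 0 to 0.0960 RPKM over the 6 samples, near the RPKM of 3 reads (up to 0.0738), with overlapping groups. Egr3 ranged from 0.0330 to 0.198 RPKM, an estimated 2.09 to 12.4 reads per sample, where 3 reads give up to 0.0555 RPKM. Its groups overlapped as well.

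Fos was at 2.86, 1.101 and 3.14 RPKM in E10.5 Ctrl and 2.94, 2.98 and 1.89 RPKM in cKO samples. The groups of Fos overlapped widely, with a log2 fold change of 0.23 (SE 0.361). Fosb was at 0.171, 0.0830 and 0.0490 RPKM in Ctrl and 0.496, 0.719 and 0.653 RPKM in cKO samples. All cKO samples of Fosb lay above all Ctrl samples, at 6.17 times the Ctrl mean, but the gene was below the filter and its values in Ctrl replicates 2 and 3 lie near the 0.0396 to 0.0578 RPKM that 3 reads give.

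Jun was at 13.1, 12.9 and 15.2 RPKM in E10.5 Ctrl and 8.64, 8.90 and 9.23 RPKM in cKO samples, a log2 fold change of −0.61 (SE 0.113) with no overlap. Jund was at 18.7, 16.2 and 17.7 RPKM in Ctrl and 13.1, 13.9 and 14.0 RPKM in cKO samples, a log2 fold change of −0.35 (SE 0.107) with no overlap. Neither reached the fold needed for a call, and with median-ratio scaling the values were −0.49 and −0.23. Junb was at 1.57, 0.647 and 0.604 RPKM in Ctrl and 1.39, 0.953 and 4.41 RPKM in cKO samples. The groups of Junb overlapped, and its log2 fold change of 1.0 (SE 0.536) was 0.39 without cKO replicate 3, the sample at 4.41 RPKM.

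Ier2 was at 10.3, 9.64 and 13.8 RPKM in E10.5 Ctrl and 5.64, 6.43 and 10.483 RPKM in cKO samples. Its groups overlapped through cKO replicate 3, with a log2 fold change of −0.61 (SE 0.225). Atf3 was at 3.27, 1.97 and 3.85 RPKM in Ctrl and 3.54, 2.78 and 3.67 RPKM in cKO samples, with overlapping groups and a log2 fold change of 0.17 (SE 0.242).

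At E10.5 the same 7 genes passed the filter, 1 (Egr1) was called lower and 0 higher, where 0.542% of the 10885 genes tested were called lower and 0.239% higher. Egr1, Jun and Jund, 3 of the 7, lay entirely below Ctrl and 0 above, against 22.6% and 6.50% of all genes, and 4.32% of all genes had an adjusted p under 0.05 with no limit on the fold. Junb, with means of 0.939 RPKM in Ctrl and 2.25 RPKM in cKO samples, passed the filter only through the cKO samples. Nothing is read from these counts either. The median log2 fold change of the 7 was −0.35, beside −0.13 for all genes. Ctrl replicate 2 was the lowest Ctrl sample for 6 of the 7, and for 54.8% of all genes tested. Without it the log2 fold change of Fos was −0.22 in place of 0.23 and that of Atf3 was −0.10 in place of 0.17, so the direction of both rests on that library.

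The order of the levels in each group can be compared because RPKM is per length. In adult Ctrl samples the order of mean RPKM was Jun (78.9), Fos (47.0), Atf3 (35.5), Jund (25.3), Egr1 (23.7), Junb (17.1), Ier2 (13.9) and Fosb (1.18). From Jun down to Ier2 the ranges of neighbours overlapped, so their order is not fixed beyond the spread of samples. In icKO samples Jund (34.7) and Atf3 (26.9) led, followed by Jun (15.7) and Junb (11.9), with no overlap between these neighbours. Fos (5.76), Ier2 (4.96) and Egr1 (3.79) came next and overlapped from neighbour to neighbour. In E10.5 Ctrl hearts Jund (17.5) stood above Jun (13.7) without overlap, and Ier2 (11.2), Egr1 (7.01), Atf3 (3.03), Fos (2.36) and Junb (0.939) followed with overlapping neighbours. In cKO hearts Jund (13.7), Jun (8.92) and Ier2 (7.52) led, and Egr1 (1.76) stood below Atf3 (3.33), Fos (2.6) and Junb (2.25), overlapping with Fos and Junb. The tables of the stages were normalized separately and hold whole hearts in one case and isolated cells in the other, so levels were not tested across them.

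Shares within the Jun family come from a single library each and do not depend on the scaling between libraries. Of the summed RPKM of Jun, Junb and Jund, Jun made up 67.2%, 66.2% and 61.2% in adult Ctrl and 23.4%, 25.5% and 26.8% in icKO samples. Jund made up 19.6%, 19.8% and 23.6% in adult Ctrl and 53.3%, 58.1% and 55.6% in icKO samples. Adult Ctrl cells thus held mainly Jun and icKO cells mainly Jund among these transcripts. The ratio of Jun to Jund was 3.42, 3.35 and 2.59 in adult Ctrl and 0.439, 0.439 and 0.482 in icKO samples. In E10.5 hearts it was 0.699, 0.797 and 0.860 in Ctrl and 0.659, 0.641 and 0.659 in cKO samples, also without overlap but far closer together. The Jun share at E10.5 was 39.2%, 43.4% and 45.4% in Ctrl and 37.3%, 37.5% and 33.4% in cKO samples.

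**Figure D3:**
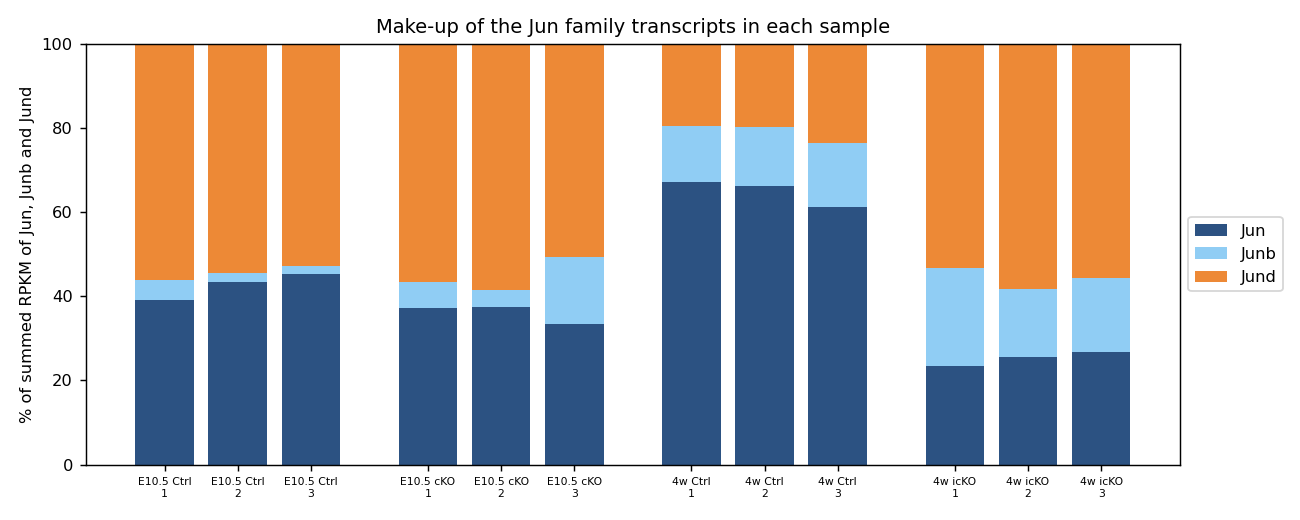
Each bar splits the summed RPKM of Jun, Junb and Jund of 1 sample into percentages (4w, 4 weeks after tamoxifen). Jun takes 61.2% to 67.2% in adult Ctrl and 23.4% to 26.8% in icKO samples, while Jund is the larger share in all E10.5 samples.

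The genes with the profile most like that of the 7 were sought over all 12 samples among 8902 genes. Log2 values were centred on each gene's own mean, and likeness was the root mean square difference from the mean profile of the 7. The profile spans both tables, which were normalized separately, so a difference in level between the stages enters it. Cyr61 (0.208), Pygb (0.216), Idh3b (0.220), Stom (0.244) and Tnni3k (0.246) came first, beside a median of 1.33 over all genes compared. The 7 themselves, which make up the mean profile, lay between 0.402 (Jun) and 1.04. Cyr61, itself an immediate early gene that codes for a matrix protein, had means of 21.8 and 21.6 RPKM at E10.5 (Ctrl and cKO) and of 114 and 49.2 RPKM in adults (Ctrl and icKO).

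The other genes of the pathway were taken as 4 lists of 89 genes in all. In counts of genes of a list, rose and fell mean called higher and called lower, and genes not called may still differ. In adults 73 were tested, of which 24 rose and 10 fell in icKO samples, and with median-ratio scaling 9 rose and 13 fell. Among all genes tested 28.0% were called higher and 8.45% lower, or 11.3% and 15.7% when scaled, and nothing particular to the lists is read from their counts. Of 17 other immediate early regulators 4 rose and 3 fell, or 3 and 5 when scaled. Maff, a small Maf protein, was at 1.49, 2.02 and 1.63 RPKM in Ctrl and 10.9, 9.14 and 8.21 RPKM in icKO samples (log2 fold change 2.39, adjusted p = 1.54e-06). Klf4, a zinc finger factor, rose by a log2 fold change of 2.11 (adjusted p = 5.76e-05) and Nfil3, a leucine zipper repressor, by 1.60 (adjusted p = 3.83e-06). Ier5, a relative of Ier2, was at 29.9 ± 8.38 RPKM (SD, n = 3) in Ctrl and 9.03 ± 1.68 RPKM in icKO samples (−1.70, adjusted p = 5.43e-05). Btg2, an antiproliferative factor, had a log2 fold change of −1.31 (adjusted p = 9.81e-06). Klf10 had −1.20 (adjusted p = 0.0127), a call lost without Ctrl replicate 3 (−0.79), with a pseudocount of 1 (−0.91) and with no filter. The list as a whole had a median log2 fold change of 0.36, beside 0.57 for all genes.

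Of 24 immediate early effectors tested in adults 6 rose and 6 fell, or 4 and 6 when scaled, with a median log2 fold change of 0.20. Dusp1, a phosphatase that switches off MAP kinases, was at 55.0, 88.0 and 93.3 RPKM in Ctrl and 13.3, 13.2 and 12.9 RPKM in icKO samples (−2.54, adjusted p = 2.28e-06). Rgs2, which shortens signalling by G proteins, was at 11.4, 17.0 and 12.5 RPKM in Ctrl and 1.82, 2.38 and 2.35 RPKM in icKO samples (−2.58, adjusted p = 1.72e-06). Arc, a gene known from synapses, had a log2 fold change of −3.23 (adjusted p = 0.000528). It averaged 8.47 RPKM in Ctrl and 0.885 RPKM in icKO samples, so it passed the filter only through the Ctrl samples, where it is high. Dusp1 and Rgs2 were lower together with Fos, Jun and Egr1. In the other direction stood Hbegf, a ligand of the EGF receptor, at 8.59, 6.86 and 7.33 RPKM in Ctrl and 53.0, 55.8 and 48.2 RPKM in icKO samples (2.77, adjusted p = 1.98e-07). Ppp1r15a, which restores translation after stress, rose by 2.08 (adjusted p = 2.81e-06) and Errfi1, an inhibitor of the EGF receptor, by 1.95 (adjusted p = 2.57e-05). Cases of both directions thus occurred within this list, and no response to a stimulus was measured.

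Of 21 upstream factors and kinases 9 rose and 1 fell, but only 1 rose and 1 fell when scaled. Srf, the factor that binds the CArG box and a gene chosen here after its values were seen, was at 15.9, 19.1 and 19.9 RPKM in Ctrl and 41.5, 42.5 and 34.9 RPKM in icKO samples, a log2 fold change of 1.11 that was 0.56 when scaled. Crem, a relative of CREB, kept its call when scaled (1.85, adjusted p = 3.05e-06, and 1.33 scaled). Mapk7 (1.48, adjusted p = 0.000361) and the SRF cofactor Mkl1 (1.42, adjusted p = 5.83e-05) lost theirs, at 0.99 and 0.91. Mapk7, Mkl1 and Elk3, which are among the 9, averaged 0.495, 0.973 and 0.703 RPKM in Ctrl. They passed the filter only through the icKO samples, where they are high. Rps6ka5, a kinase that phosphorylates CREB and histone H3 at immediate early genes, was the gene that fell (−1.38, adjusted p = 0.000157). With means of 2.22 RPKM in Ctrl and 0.798 RPKM in icKO samples, Rps6ka5 passed the filter only through the Ctrl samples. Of 11 partners of the products 5 rose and 0 fell, or 1 and 1 when scaled. The median log2 fold changes were 0.96 for the upstream list and 0.77 for the partners. Mafk, a small Maf protein, rose by 2.35 (adjusted p = 5.49e-07) and by 1.80 when scaled, while Mafg (1.31, adjusted p = 1.77e-05) and Cops5, a coactivator of Jun (1.09, adjusted p = 6.41e-06), lost their calls at 0.76 and 0.54.

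At E10.5, 75 genes of the 4 lists were tested and 0 were called by limma, beside 0.542% of all genes called lower and 0.239% higher. An adjusted p under 0.05 without the fold was reached by 4 of the 75, beside 4.32% of all genes. Nothing particular to the lists is read from these counts. Fosl2, an AP-1 partner of Jun, was at 2.92, 2.15 and 2.69 RPKM in Ctrl and 4.45, 4.38 and 4.36 RPKM in cKO samples (0.76, adjusted p = 0.0346). Gadd45b, a stress-induced regulator of growth arrest, had a log2 fold change of 0.83 (adjusted p = 0.0457) and Maff 0.87 (adjusted p = 0.0478). Myocd, the muscle cofactor of SRF, was at 27.4, 24.7 and 27.7 RPKM in Ctrl and 16.5, 17.6 and 19.8 RPKM in cKO samples (−0.57, adjusted p = 0.0291). Jdp2, a repressor that pairs with Jun, did not pass (0.67, adjusted p = 0.161). Ctrl replicate 2 was the lowest Ctrl sample for 15 of 17 other regulators, 20 of 25 effectors, 12 of 22 upstream genes and 4 of 11 partners, beside 54.8% of all genes.

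**Figure D4:**
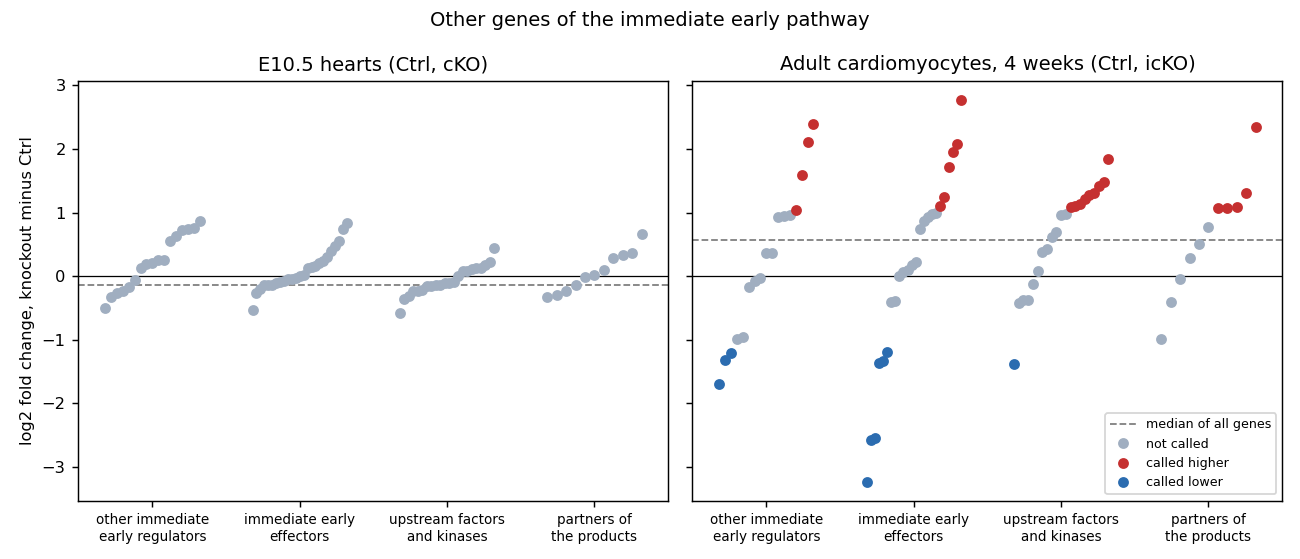
Each point is the log2 fold change, knockout minus Ctrl, of 1 gene of the 4 pathway lists, at E10.5 on the left and in adults on the right, in red where called higher, in blue where called lower and in grey otherwise, with the median of all genes as a dashed line. At E10.5 no point is coloured, and in adults 24 are red and 10 blue.

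Markers of other cell types and heat shock genes moved with the adult groups, and their part in the values above was not tested. In bulk samples fewer cells of a type and less RNA per cell cannot be told apart. Among all genes tested in adults 28.0% were called higher and 8.45% lower, or 11.3% and 15.7% with median-ratio scaling. Here too, rose and fell in the counts mean called higher and called lower. The summed RPKM of 8 cardiomyocyte markers was 24859 to 26293 in adult Ctrl and 7925 to 10506 in icKO samples, and 6 of the 8 fell, or 7 when scaled. The 8 fibroblast markers summed to 4.70 to 7.95 in Ctrl and 52.6 to 70.6 in icKO samples, and all 4 tested rose, or 3 when scaled. Of these, Col1a1, Col1a2 and Postn averaged 0.435, 0.703 and 0.367 RPKM in Ctrl. They passed the filter only through the icKO samples, where they are high, so their calls are not counted as support. Of 7 endothelial markers 1 was called higher (sums of 9.64 to 28.0 and 25.4 to 47.5). Of 3 macrophage markers tested 2 were called higher (2.99 to 4.85 and 7.44 to 10.8). The log2 fold changes of all 7 and all 3 were above 0, beside a median of 0.57 for all genes. When scaled, 0 endothelial and 0 macrophage markers were called. The macrophage genes C1qa and C1qb averaged 0.837 and 0.595 RPKM in Ctrl and passed the filter only through the icKO samples. Mural markers summed to 60.8 to 68.5 in Ctrl and 21.9 to 44.1 in icKO samples, though 2 of the 4 tested rose and 1 fell, or 1 and 1 when scaled. The lower sum comes from the 1 that fell, Abcc9, with means of 55.1 and 4.97 RPKM. Abcc9 made up most of the Ctrl sum, so the sum is not read as a level of mural cells. All other mural markers had higher means in icKO than in Ctrl samples. Pdgfrb, at 0.963 RPKM in Ctrl, passed the filter only through the icKO samples. Erythroid markers summed to 1.29 to 21.2 and 11.4 to 26.3, with 0 called. Fibroblast Tcf21, macrophage Cx3cr1 and the leukocyte genes Ptprc, Cd3e, Cd79a, S100a8 and S100a9 were listed at 0 in some adult samples.

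The 12 heat shock genes, which cell stress and handling also induce, summed to 433 to 489.8 RPKM in adult Ctrl and 859.6 to 1002 RPKM in icKO samples, and 6 rose and 0 fell, or 3 and 2 when scaled. Hspa1a, the inducible Hsp70, was at 0.350, 0.951 and 0.692 RPKM in Ctrl and 22.2, 17.6 and 15.1 RPKM in icKO samples. Hspa1a and Hspa1b, with Ctrl means of 0.664 and 0.0773 RPKM, passed the filter only through the icKO samples. The list did not move as one, with 10 log2 fold changes above 0 and 2 below. Hsp90aa1 had means of 14.3 and 164 RPKM (Ctrl and icKO), whereas Hspd1 had 75.5 and 41.0 and Hspe1 22.2 and 15.6. The 10 immediate early factors summed to 198, 325 and 205 RPKM in adult Ctrl and 107, 107 and 100.2 in icKO samples. The part of handling in either sum was not tested. Adult Ctrl replicate 2, the highest Ctrl sample for all 7 members, was the highest for 2 of the 12 heat shock genes, 11 of 17 other regulators, 11 of 24 effectors, 6 of 21 upstream genes and 6 of 11 partners, beside 31.5% of all genes.

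At E10.5 the 8 cardiomyocyte markers summed to 6044 to 8968 RPKM in Ctrl and 4203 to 5003 in cKO samples. Only 1 of the 8 was called lower, but the log2 fold changes of all 8 were below 0. Fibroblast (52.5 to 102 and 55.2 to 68.0) and endothelial markers (141 to 187 and 163 to 174) overlapped. Macrophage markers summed to 8.92 to 11.9 and 4.96 to 6.88, which is mostly Lyz2, with means of 7.72 and 3.77 RPKM and a call lost when scaled. Erythroid markers summed to 241 to 787 and 381 to 2256, the last in cKO replicate 1 alone, beside 381 and 884 in replicates 2 and 3. Of 10 heat shock genes tested 1 was called lower, Hspa8 (−1.18, adjusted p = 0.0327), while 7 had log2 fold changes below 0 and 3 above. The heat shock sums were 643 to 718 in Ctrl and 361 to 506 in cKO samples. The 10 immediate early factors summed to 57.6, 46.0 and 64.8 RPKM in Ctrl and 38.1, 38.5 and 45.8 in cKO samples.

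**Figure D5:**
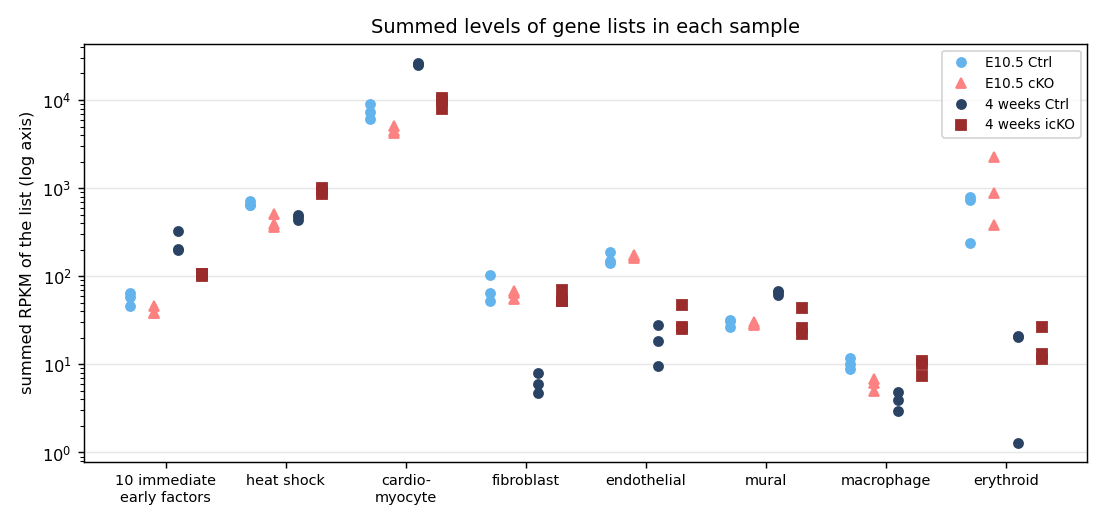
Each point is the summed RPKM of a gene list in 1 sample on a log axis, with E10.5 samples in light and adult samples in dark colours, Ctrl as circles and knockout as triangles or squares. In adults the immediate early factors and cardiomyocyte markers sit lower in icKO than in Ctrl samples, and the heat shock and fibroblast lists sit higher.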

How the data were processed

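RNA-seq of 12 mouse samples, 3 in each of 4 groups, was analysed, with groups taken from the sample labels. Libraries were made with a kit that depletes ribosomal RNA. The authors deposited 1 table per stage with the RPKM of 20775 genes by symbol, and both were used as deposited. The submitters' processing notes name HOMER 4.11.1, STAR 2.5.3a, cutadapt 2.6 and DESeq2 1.12.4 without their roles, the build is GRCm38, and the annotation, strand setting and RPKM denominator are not given in the sources used here. The mean RPKM, log2 fold change and FDR columns that the authors also deposited were not used.

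For each stage a linear model was fitted in R 4.3.3 with limma 3.58.1, using lmFit and a trended eBayes. Its input was log2(RPKM + 0.1), which understates changes of low genes, of genes averaging above 1 RPKM. RPKM are not counts, so no count test was run. Reads per library were estimated from the spacing of values of up to 12 reads, of which 62.6% to 70.8% lay within 0.1 of a whole read (20% by chance), with an error of at most 0.134% when tested on simulated libraries. The fit was also tested on simulated data. With 3 samples against 3, an exact permutation test could not go below 0.1, so none was used.

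The 10 genes and all lists were chosen with earlier results of these data known. Named are all 10 genes and, per stage and pathway list, the 3 called genes with the largest fold change in each direction, or, with none called, the gene of smallest adjusted p. Srf, Maff at E10.5, the heat shock genes and genes listed at 0 were named after their values were seen. Alternatives were pseudocounts of 1 and 0.01, no filter, a mean RPKM above 5, quantile normalization, median-ratio scaling, scaling that left out the 20 most abundant genes, an untrended eBayes, the replicate number as a block, and leaving out each library. Same-numbered samples did not deviate together (correlations of −0.07 to 0.15), so the numbers were not taken as pairs. Python 3.11.15, pandas 2.3.3, numpy 2.4.6 and matplotlib 3.10.9 were used. Promoter sequences are from RefSeq. The result of 1 gene with opposite directions at the stages is not reported here.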

Additional observations from a re-analysis of the deposited data

Results flagged for a closer look

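For the 5 genes given here, every knockout sample lay on one side of Ctrl at E10.5 and on the other side in adults. The difference between the stages was not tested, since the tables were normalized separately. Of all genes tested, 22.6% lay entirely below Ctrl at E10.5 and 62.0% entirely above in adults, the pattern of all of these but Btg2. Btg2 had the other, for which the shares are 6.50% above at E10.5 and 18.9% below in adults. These are shares of each stage alone, and the share of genes with both sides together is not given, so how common either pattern is stays unknown. The log2 fold changes of Jund were −0.35 at E10.5 and 0.47 in adults, and −0.23 and −0.09 with median-ratio scaling, so the opposite signs of Jund depend on the scaling. Those of Btg2 were 0.74 and −1.31, and 0.86 and −1.86 when scaled. Among kinases, Map2k2 had −0.16 and 0.70 (−0.04 and 0.15 when scaled) and Rps6ka3 had −0.10 and 0.98 (0.02 and 0.44, no longer opposite). Atf4, a leucine zipper factor of the stress response, had −0.23 and 1.08, and −0.11 and 0.53 when scaled.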

How the results depend on the processing

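Of 332 values of named pathway genes under the alternatives, 318 kept their side of the threshold, 13 lost the call and 1 gained it. Of 178 values of the immediate early factors, 158 moved by less than the spread of samples and 20 moved further. Among the factors the call of Egr1 at E10.5 was lost under 6 settings (no filter, no trend and 4 of the left-out libraries) and that of Junb in adults was gained under 2 (median-ratio scaling and quantile normalization). The sign changed in 4 cases, none of a called gene: Jund in adults with those 2 scalings (−0.09 and −0.03), and Fos (−0.22) and Atf3 (−0.10) at E10.5 without Ctrl replicate 2. The median log2 fold change of the 7 genes in adults (−1.40) was −1.94 with median-ratio scaling, −1.91 with quantile normalization and −1.60 to −1.10 when 1 library was left out, the latter without Ctrl replicate 2. At E10.5 the 26 genes called higher became 12 with a pseudocount of 1, 0 with no filter, 9 with a mean RPKM above 5 and 48 when scaling left out the 20 most abundant genes, and 9 (without cKO replicate 2) to 36 when 1 library was left out. The 59 called lower became 36, 1, 34 and 36 under the same settings, 37 with quantile normalization, 38 with no trend and 18 to 102 when 1 library was left out, the last without cKO replicate 3. With no filter far more low genes enter the adjustment. Pathway genes called higher at E10.5 went from 0 to 2 when scaling left out the 20 most abundant genes. In adults the 2668 genes called higher became 1687 with a mean RPKM above 5, 1074 with median-ratio scaling and 1192 with quantile normalization, and the 804 called lower became 454, 1495 and 1349. The 24 pathway genes called higher became 15, 9 and 11 under these settings and 14 when scaling left out those 20 genes. Apart from the filter and the left-out libraries, the cause was not tested. With the replicate block, which is a hint only since numbers do not pair the samples, 32 genes were called higher and 61 lower at E10.5, and 2672 and 805 in adults. Depth limits Egr2 at both stages, Egr3 in adults, and Fosb in E10.5 Ctrl replicates 2 and 3, which lie near the RPKM of 3 reads. Egr3 at E10.5, at an estimated 2.09 to 12.4 reads per sample, is limited by depth too.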
